A study of Mus musculus with 12 samples.

Results

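Eif1ad3 is the gene that this study cut at the RNA level in one experiment and expressed with a His tag in the other, in mouse embryos at the 2-cell stage. It is 1 of 9 genes in the deposited tables whose symbol starts with Eif1ad, out of 20244 genes listed in either table, and it was taken by its symbol in both tables and across all 12 value columns. It is listed in both tables and passed the filter on low values in every comparison. Of the 9 symbols, only Eif1ad was found in the RefSeq gene table used here, so no position or sequence is given for Eif1ad3.

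In the knockdown experiment, 2 control libraries labelled wild type and 2 knockdown libraries labelled Eif1ad3_KD were made from 2-cell embryos. The design text says that CF1 mouse 1-cell embryos received mRNA of RfxCas13d, an enzyme that cuts RNA, alone or with a guide RNA against Eif1ad3 and its variants, while the samples' protocol describes morpholino oligos given to oocytes with Cas13d protein. In the RNA immunoprecipitation experiment, mRNA encoding Eif1ad3 with a His tag was injected into zygotes at 200 ng/uL. RNA bound to the tagged protein was pulled from lysates of 2-cell embryos (200 cells per replicate) with antibody to the tag, and IgG served for comparison. The 2 anti-His, 2 IgG and 2 Input samples are labelled Eif1ad3_OE (overexpressing), and 2 further samples, called total, are labelled WT. The design text speaks of overexpressing and control cells without saying which entered the IgG pulldown.

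The unprecipitated libraries are headed In_ni and In_total in the table, each with replicates A and B. The headers fix the pairs, but the labels do not explain ni, and both headers start like Input. The pairs are therefore called ni and total after their headers, and which of them is the overexpressing one was not settled. Here ni was set against Input and total against the sample of that name; the opposite assignment alters no level or difference given here under these names, only which pair is the overexpressing one. The IgG libraries stood apart from all others: across genes, log2 values of the IgG replicates correlated at 0.138, against 0.849 to 0.985 between replicates of the other groups, so the comparisons of IgG with anti-His and with ni are also given without each IgG library.

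Proteins of the Eif1ad family carry a domain like that of eIF1A, the translation initiation factor that helps the small ribosomal subunit scan messenger RNA for the start codon. Eif1ad, the member with no number, is conserved among vertebrates, whereas the numbered genes are related copies in the mouse genome. In the mouse, the first main wave of transcription from the embryo's own genome takes place at the 2-cell stage, while the store of messenger RNA laid down in the oocyte is being degraded.

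Eif1ad3 was detected in all 12 libraries, at levels from 839 to 1.35 CPM, the gene's reads scaled to the library's total. In the knockdown table it stood at 839 CPM in control replicate A and 663 CPM in control replicate B, while knockdown replicate A had 277 CPM and replicate B 377 CPM. These values rest on 20985 and 16503 reads in the controls and on 7717 and 6847 reads in the knockdown libraries. The knockdown group thus lay wholly below the control group.

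Within the immunoprecipitation table the ni pair stood at 109 CPM in replicate A and 91.6 CPM in replicate B. The total pair stood at 185 and 111 CPM, and the anti-His pair at 80.3 and 83.6 CPM. The IgG pair stood at 1.35 and 30.8 CPM, from 8 and 144 reads. The order of the group means was therefore total, ni, anti-His and IgG, and no library of one group crossed into the next. That order rests on 2 libraries a group, and the gap between total replicate B and ni replicate A was smaller than the spread within either pair. Exact 95% binomial intervals ran from 179 to 192 CPM in total replicate A and from 0.583 to 2.66 CPM in IgG replicate A. They cover counting error only, not the spread between libraries, and treat each read as independent. The reads are not marked by molecular identifiers, so amplified copies count as separate reads and the intervals can be too narrow.

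**Figure D1:**
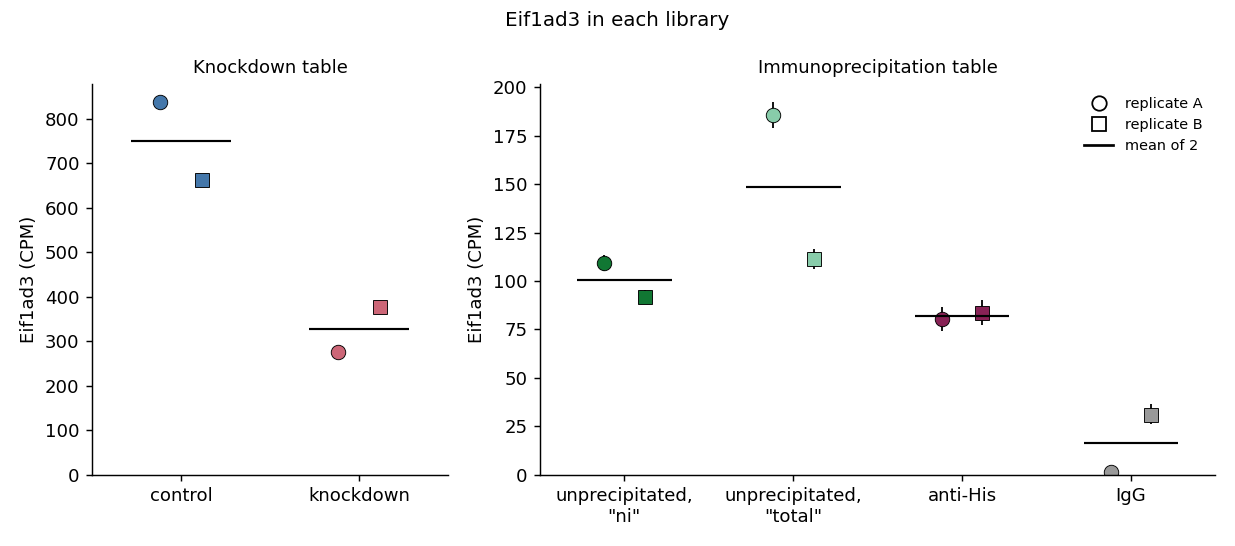
Eif1ad3 level in CPM (linear axis from 0, with different scales in the panels) in each of the 12 libraries; circles are replicate A, squares are replicate B, horizontal bars are means of 2 libraries and vertical lines are exact 95% binomial intervals for counting error. The knockdown libraries (277 and 377 CPM) sit below the controls (839 and 663 CPM), and the IgG libraries (1.35 and 30.8 CPM) sit below all other libraries of their table.

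The tables were scaled separately, so levels in one are not tested against the other. Side by side, the control mean of 751 CPM was 4.05 to 8.20 times the level in the 4 unprecipitated libraries of the immunoprecipitation table, and even the knockdown mean was 1.76 to 3.57 times that level. The summed level of the 9 Eif1ad genes differed in the same direction, at 2782 to 3505 CPM in controls and 374 to 1079 CPM in the unprecipitated libraries. So did 20 listed genes of a list of 22 2-cell markers, which summed to 5021 to 5386 CPM in controls and 1416 to 2016 CPM in the unprecipitated libraries. The 19 oocyte genes differed in the opposite direction, at 13717 to 16702 CPM in controls and 18954 to 25190 CPM in the unprecipitated libraries. The part of the marker levels in this gap was not tested.

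The knockdown comparison asks how far the Cas13d treatment lowered its target. The mean of Eif1ad3 was 327 ± 70.8 CPM with knockdown against 751 ± 125 CPM without (SD, n = 2 each), so that 43.5% of the control mean remained. Over the 4 pairings of a knockdown with a control library, the remaining level ran from 33.0% to 56.8%. On the log2(CPM + 1) scale the difference was -1.21 (SE 0.33, 95% interval -1.96 to -0.45) in limma, and 215 of the 13332 genes tested (1.61%) had a lower fold change. The difference did not pass over all genes: its unadjusted p in limma was 0.00608 and its Benjamini-Hochberg adjusted p 0.859. No gene passed in this comparison (0% called, with 726 genes or 5.45% at an unadjusted p under 0.05), and DESeq2 on whole reads called 15 genes (0.113%), with Eif1ad3 not among them at an adjusted p of 0.399. For 18.4% of all genes tested, the knockdown group lay wholly below the controls as it did for Eif1ad3.

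The call turned on single knockdown libraries. Without knockdown replicate A the log2 fold change was -0.98, with an adjusted p of 0.00411 in limma and 15.1% of genes called, and without knockdown replicate B it was -1.43, with an adjusted p of 0.000748 and 3.23% called. In both, the lone knockdown library is assumed to vary as little as the controls do. Leaving out a control gave -1.04 and -1.38, with an adjusted p of 1. Eif1ad3 differed between replicates by 0.34 log2 units among controls and by 0.44 with knockdown, where the median gene differed by 0.36 and 0.73 (genes at 1 CPM or more in at least 1 library of the group). The spread of Eif1ad3 was thus below that of the median gene in both groups.

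**Figure D2:**
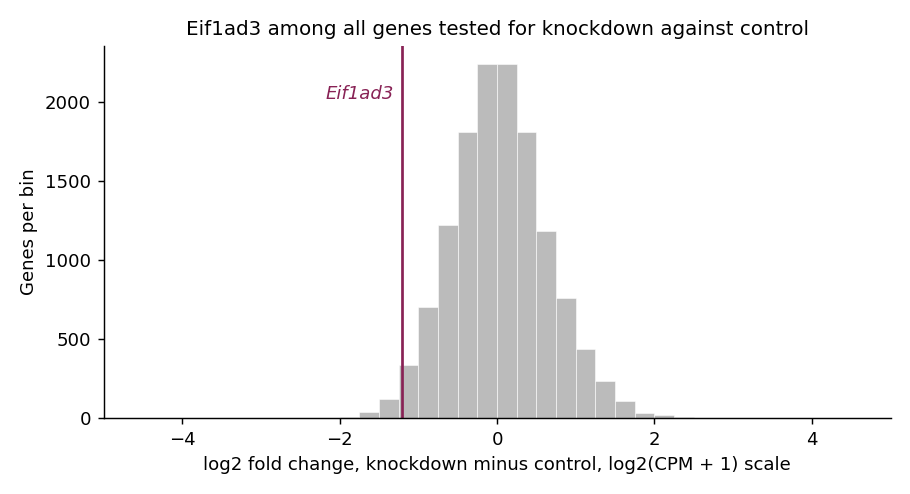
Number of genes per bin of 0.25 log2 units against the log2 fold change of knockdown minus control, over 13332 genes tested (1 gene falls outside the axis). The vertical line marks Eif1ad3 at -1.21, with 1.61% of genes lower.

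All 9 Eif1ad genes had a lower mean in knockdown embryos, with a median log2 fold change of -1.13 against 0.02 over all genes tested, and none passed over all genes. Eif1ad6 stood at -1.68 (SE 0.34) and Eif1ad8 at -1.63 (SE 0.39), against -1.21 for Eif1ad3, and Eif1ad itself at -0.18 (SE 0.43). The 95% intervals of these members overlapped that of Eif1ad3. The groups were separate, with knockdown lower, for 8 of the 9 genes (18.4% of all genes), and overlapped for Eif1ad. Without knockdown replicate A 5 of the 9 passed, and without replicate B 6 did, against 15.1% and 3.23% of all genes. The summed level of 20 listed 2-cell markers was also lower, from 5386 CPM in control A and 5021 CPM in control B to 4054 and 4186 CPM with knockdown. Of the 18 markers tested, 13 were lower and 5 higher, with a median log2 fold change of -0.23, and none passed in limma. The sum of 19 maternal oocyte genes was 16702 and 13717 CPM in the controls and 24492 and 13076 CPM with knockdown. The part of these levels in the result for Eif1ad3 was not tested, and in bulk libraries fewer embryos expressing a gene cannot be told apart from less RNA per embryo.

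The share of Eif1ad reads that came from Eif1ad3 does not depend on how libraries are scaled to each other. It was 23.9% in control replicate A and 23.8% in control replicate B, and 23.8% and 21.8% in knockdown replicates A and B. The mean share was 23.9% ± 0.08 in controls and 22.8% ± 1.40 in knockdown embryos (SD, n = 2 each), a difference of -1.06 percentage points with an exact two-sided permutation p of 0.333, the smallest that 2 libraries against 2 can give. Leaving out knockdown replicate B took the difference to -0.07 points, and leaving out replicate A took it to -2.05 points. With Eif1ad left out of the sum, the difference was -0.40 points, and both controls (24.5% and 25.1%) then lay between the knockdown libraries (25.4% and 23.3%). Reads of close copies can be divided between genes in ways the sources used here do not state, so the values of single members are uncertain.

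**Figure D3:**
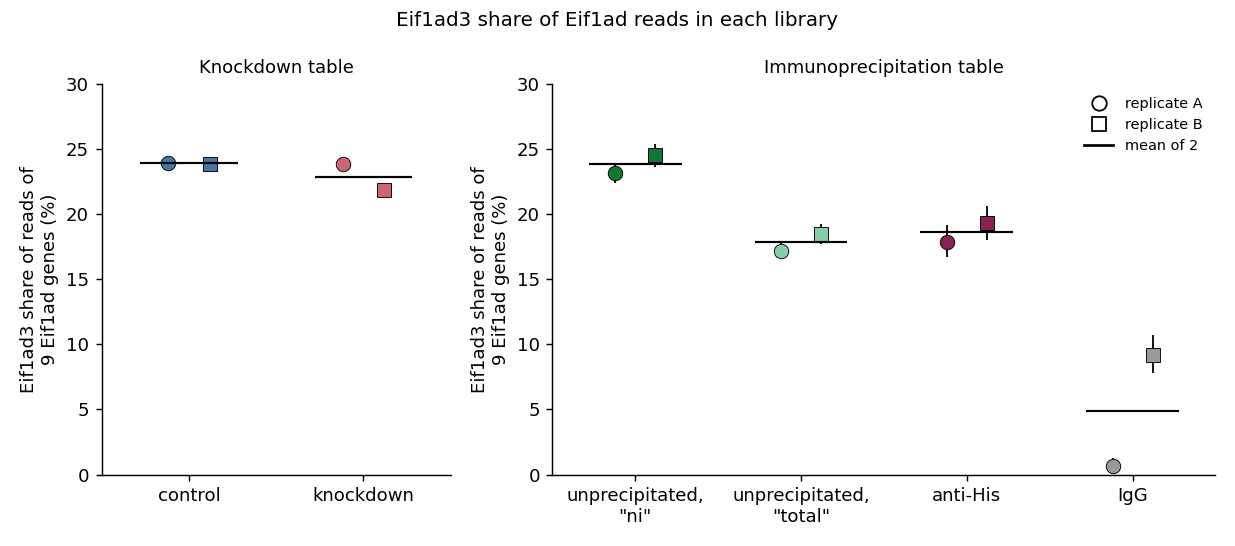
Share of the reads of 9 Eif1ad genes that came from Eif1ad3, in percent (axis from 0), in each library; circles are replicate A, squares replicate B, bars means of 2, vertical lines exact 95% binomial intervals for counting error. Shares are 21.8% to 23.9% in the knockdown table, 23.1% and 24.5% in the ni pair, 17.2% to 19.3% in the total and anti-His pairs, and 0.656% and 9.14% in the IgG pair.

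The unprecipitated RNA is where the labels set overexpressing against wild-type embryos. Gene-level CPM cannot separate injected from endogenous Eif1ad3. Its mean was 100.4 ± 12.5 CPM in the ni pair and 148 ± 52.4 CPM in the total pair (SD, n = 2 each), and both ni libraries lay below both total libraries (28.5% of genes did). The log2 fold change, ni minus total, was -0.52 (SE 0.21, 95% interval -0.97 to -0.06), with an adjusted p of 0.0781 in limma, which did not pass while 30.6% of genes did.

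This call differed between settings. Eif1ad3 passed with edgeR on whole reads (-0.69, adjusted p 0.0492, 28% of genes called), with DESeq2 (-0.69, 0.0231, 28.5% called), with median rescaling (-0.62, 0.0372, 29.4% called), with quantile normalization (-0.64, 0.0452, 27.5% called) and with the replicate letter as a block (-0.52, 0.00035, 44.7% called). It did not pass in limma with all libraries of the table in 1 fit (adjusted p 1), where only 0.0218% of genes were called. Nor did it with no trend (0.228, 20.3% called) or with no filter (0.217, 13.6% called). The same held with pseudocounts of 0.1 and 5 (0.0873 and 0.0793, 30% and 30.4% called) and at a mean of 5 CPM or more (0.0705, 40.3% called). The fold change of Eif1ad3 in these settings was -0.52 to -0.50. Of the libraries left out in turn, only total replicate B changed the call, with a fold change of -0.88 without it (adjusted p 5.4e-05 in limma, 38.8% of genes called). The fold change was -0.15 without total replicate A (adjusted p 0.547) and -0.39 without ni replicate B (0.369). In each of these fits the lone library is assumed to vary like the other pair.

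Of the 8 relatives of Eif1ad3, 7 had a lower fold change than it had between these pairs. All 9 Eif1ad genes were lower in the ni pair, with a median log2 fold change of -1.13 against 0.10 over all genes, and 7 of the 9 passed in limma (12.6% of all genes passed in that direction). The 7 calls became 0 with all libraries of the table in 1 fit, 2 with no filter and 3 with no trend. Genes called in either direction then made up 0.0218%, 13.6% and 20.3% of all tested. In the other settings with both pairs whole, 7 or 8 of the family passed (27.5% to 44.7% of all genes). The count also changed with ni replicate B or either total replicate left out. Eif1ad4 stood at -1.54 (SE 0.29, adjusted p 0.00145) and Eif1ad7 at -0.95 (SE 0.22, adjusted p 0.00585), and the members that did not pass were Eif1ad3 and Eif1ad. As a share of Eif1ad reads, Eif1ad3 held 23.1% and 24.5% in the ni pair and 17.2% and 18.4% in the total pair. The pairs did not overlap, with a difference of 6.00 percentage points and the smallest possible exact permutation p of 0.333. The pair with the higher Eif1ad3 level in CPM was thus the pair with the lower Eif1ad3 share. The 2-cell markers summed to 1416 and 1421 CPM in the ni pair and to 2016 and 1665 CPM in the total pair. The oocyte genes summed to 18954 and 19182 CPM in the ni pair and to 25190 and 21948 CPM in the total pair, also without overlap. The part of these levels in the result was not tested.

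**Figure D4:**
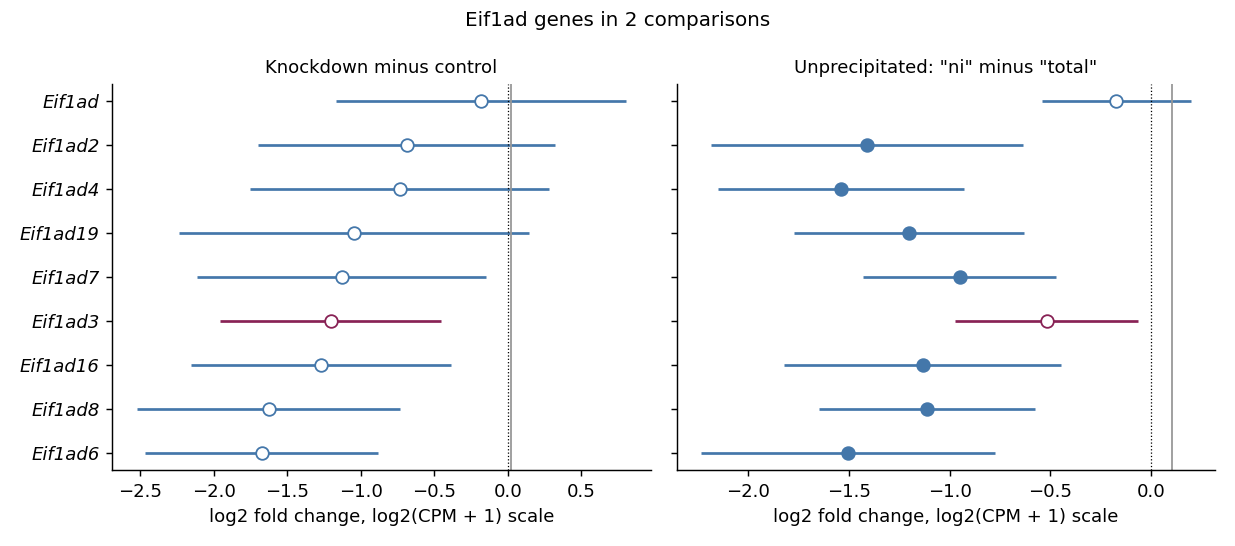
Log2 fold change on the log2(CPM + 1) scale of the 9 Eif1ad genes, for knockdown minus control (left) and ni minus total (right); lines are limma's 95% intervals, filled points passed at an adjusted p under 0.05, dotted lines mark 0 and grey lines the median of all genes tested. Eif1ad3 (dark red) lies at -1.21 on the left, amid the family, and at -0.52 on the right, nearer to 0 than 7 of the other members.

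The pulldown asks which RNA is bound by the tagged protein, with IgG as the background. Eif1ad3 averaged 82.0 ± 2.3 CPM in anti-His and 16.1 ± 20.8 CPM in IgG libraries, the background measured the same way (SD, n = 2 each). Both anti-His libraries lay above both IgG libraries, as for 54.1% of all genes tested. The log2 fold change was 3.26 (SE 1.66, 95% interval -1.69 to 8.21), with an adjusted p of 0.252 in limma. It did not pass, while 36.6% of genes did, and the median of all 11232 genes tested was itself 2.01. Of all genes tested, 73.0% had a lower fold change than Eif1ad3.

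The width of that interval came from IgG. The IgG replicates of Eif1ad3 differed 22.8-fold in CPM, against 1.04-fold in the anti-His replicates. Without IgG replicate A the log2 fold change was 1.38 (adjusted p 0.0138, 69.1% of genes called), and without IgG replicate B it was 5.14 (adjusted p 0.000195, 70% called); the lone IgG library is then assumed to vary like the anti-His libraries. The members of the family were split between the IgG replicates in opposite ways. Eif1ad had 172 CPM in IgG replicate A and 0.855 CPM in replicate B, whereas Eif1ad8 had 3.38 and 178 CPM. Summed over the 9 genes, the IgG replicates differed less, at 206 and 337 CPM, with 0.656% and 9.14% of those reads from Eif1ad3. The IgG libraries also held fewer genes with a read, 6816 and 7173, against 14077 to 18176 in the other libraries of that table, and their part in this result was not tested.

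Against unprecipitated RNA, the mean of Eif1ad3 was lower in the anti-His libraries, and neither difference passed. It stood at 81.6% of the ni mean (log2 fold change -0.28, SE 0.17, 95% interval -0.73 to 0.16, adjusted p 0.236 in limma) and at 55.2% of the total mean (-0.80, SE 0.28, 95% interval -1.51 to -0.09, adjusted p 0.0883). In these comparisons 40% and 28% of genes passed, and the medians of all genes were -0.19 and -0.15. Both anti-His libraries lay below all 4 unprecipitated libraries. Between anti-His and ni, both anti-His libraries lay below for 40.8% of genes, and between anti-His and total for 37.5%. The upper bound against the ni pair allows Eif1ad3 to be higher by 0.16 log2 units in anti-His. With median rescaling, which took the all-gene median from -0.19 to 0.04, the difference from ni was -0.01.

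The IgG libraries held 16.0% of the ni mean of Eif1ad3 (log2 fold change -3.55, SE 1.63, adjusted p 0.179 in limma, 56.1% of genes called) and 10.8% of the total mean (-4.07, SE 1.66, adjusted p 0.143, 54.8% called). Both IgG libraries lay below all 4 unprecipitated libraries, as for 64.7% of genes against ni and 63.9% against total. Without IgG replicate A the difference from ni was -1.67 (adjusted p 3.7e-07, 94.4% of genes called in limma), and without IgG replicate B it was -5.43 (1.48e-11, 95.3% called). The anti-His, IgG and unprecipitated comparisons share libraries, so their values are not independent of each other. In its share of Eif1ad reads, the anti-His pair was at 17.9% and 19.3%, overlapping the total pair (17.2% and 18.4%, exact permutation p 0.667) and below the ni pair (23.1% and 24.5%, p 0.333). With p-values adjusted over 5 comparisons of shares, the lowest was 0.416.

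**Figure D5:**
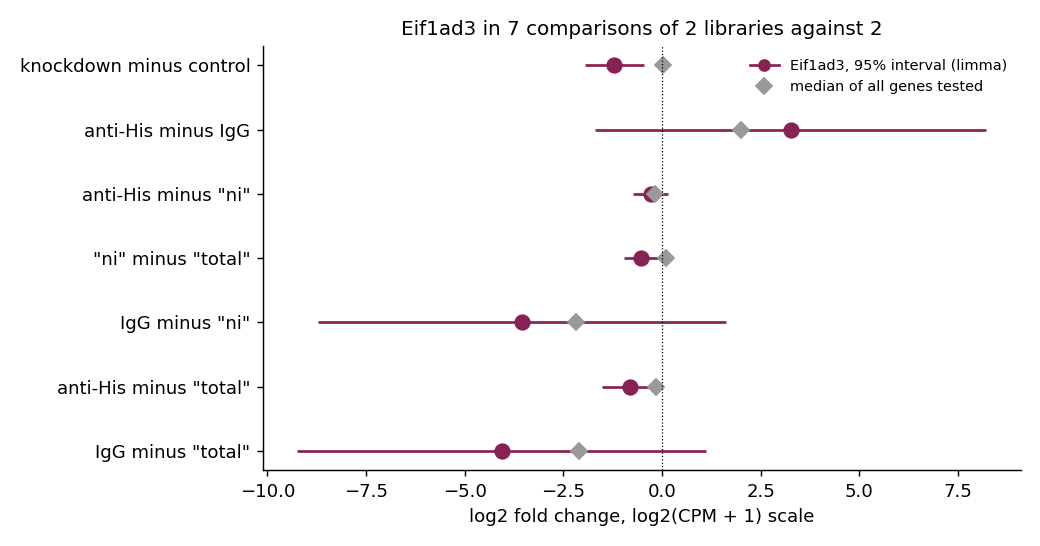
Log2 fold change of Eif1ad3 on the log2(CPM + 1) scale with limma's 95% interval (circles and lines) and the median of all genes tested (diamonds), in 7 comparisons of 2 libraries against 2. Comparisons with IgG have wide intervals (-1.69 to 8.21 for anti-His minus IgG), and the anti-His minus ni interval spans 0 (-0.73 to 0.16).

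Genes with a pattern like that of Eif1ad3 were ranked by Pearson's r of log2(CPM + 1) over the 12 libraries, centred within each table, among 7262 other genes at a mean of 10 CPM or more in controls. The 6 highest outside the family were Thap1, a zinc-finger DNA-binding protein (r 0.982), Pes1, a factor of ribosome biogenesis (0.965), Nup35, a nuclear pore protein (0.964), Fbxw2, an F-box protein (0.964), Iqca (0.964) and Pak1ip1 (0.963). All 6 were lowest in IgG replicate A and next lowest in IgG replicate B within their table. The points share those 2 IgG libraries, and a high r was common, with a median of 0.658 over the genes ranked and 286 genes (3.94%) at 0.9 or more. The 4 knockdown-table libraries entered this ranking, so the values there are a description only: the knockdown libraries lay below both controls in 4 of the 6 (18.4% of all genes tested). Pes1 had 52.8 and 40.2 CPM in controls and 28.7 and 22.3 CPM with knockdown, Thap1 46.0 and 45.9 against 37.2 and 42.9 CPM, Nup35 318 and 232 against 223 and 215.5 CPM, and Iqca 190.5 and 185 against 173 and 85.7 CPM. The groups overlapped for Fbxw2, at 25.3 and 24.4 against 12.8 and 25.2 CPM, and for Pak1ip1, at 179 and 132 against 140 and 93.6 CPM. Within the family, r with Eif1ad3 was highest for Eif1ad16 (0.973) and Eif1ad7 (0.959) and lowest for Eif1ad (-0.048). Eif1ad7, the member with the most reads in controls, stood at 1122 and 783 CPM there and at 288 and 635 CPM in knockdown libraries. Eif1ad2, the member with the fewest reads, stood at 74.1 and 55.0 CPM and at 29.0 and 53.1 CPM.

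The 43S preinitiation complex is the assembly in which eIF1A itself acts. In the knockdown, none of 24 genes of its factors passed in limma (0% of all genes did), with a median log2 fold change of 0.04 against 0.02 over all genes and -1.21 for Eif1ad3. That count changed when either knockdown library was left out, as did the count over all genes. Eif1ax, which encodes eIF1A, stood at 0.35 (SE 0.35), Eif1, a partner in start codon selection, at -0.14 (SE 0.29), and Eif5b, the factor of subunit joining, at 0.03 (SE 0.31). In anti-His against IgG, 22 of the 24 were tested and 4 passed higher (35.7% of all genes did). Their median log2 fold change over the 22 was 0.84, below the 2.01 over all genes. Among the 4 were Eif1ax at 6.11 (SE 0.71, adjusted p 0.0113 in limma) and Eif1 at 1.57 (SE 0.11, adjusted p 0.00997 in limma). Of all genes tested, 98.1% had a lower fold change than Eif1ax and 42.6% a lower one than Eif1. Eif1ad3, at 3.26, did not pass, and Eif5b was at -0.43 (SE 1.07). None of the 24 passed with no filter, with quantile normalization or with edgeR, settings in which 0 of all genes tested passed. The calls of Eif1ax and Eif1 ended there with all others. The count also changed with a library left out. Eif1ax had 0.422 CPM on average in IgG, and its fold change depends on the pseudocount. Between the unprecipitated pairs, Eif1ax (-1.25, adjusted p 0.00103) and Eif1 (-0.86, adjusted p 0.00288) were lower in the ni pair in limma and Eif5b higher (0.60, adjusted p 0.0173), beside -0.52 for Eif1ad3, which did not pass. Of the 24 genes, 6 passed higher (18% of all genes) and 7 lower (12.6%). None passed with all libraries of the table in 1 fit, where 0.0218% of all genes did. With no trend 3 passed higher and 4 lower (20.3% of all genes passed in either direction). Both counts also changed with either ni library left out.

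The libraries of the knockdown experiment held 18173916 to 27902514 reads and those of the pulldown 4678563 to 25209070, so that a floor of 3 reads lies between 0.108 and 0.641 CPM, below every Eif1ad3 value. Of 20 listed 2-cell markers, 18 to 20 were above 0 in each knockdown-table library, 20 in each unprecipitated and anti-His library, and 10 and 14 in the IgG libraries. Markers of cumulus cells, which surround the egg, summed to 22.2 to 41.1 CPM in the knockdown table (6 of 14 listed) and to at most 59.6 CPM in the immunoprecipitation table, and markers of later embryos to 39.7 to 74.0 and 4.06 to 208 CPM. Their part in the results for Eif1ad3 was not tested.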

How the data were processed

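Embryo and pulldown RNA was amplified by Smart-seq2, prepared with Nextera XT and read as 150 bp pairs, per the labels' protocols. Trim Galore 0.6.7, FastQC, HISAT2 2.2.1, featureCounts 2.0.1, edgeR and build GRCm39 are named in the submitters' processing notes, and strand, multi-mapping and gene filters are not given in the sources used here. The deposited values are CPM, reads per gene scaled by the authors to a fixed library total. Every value (100%, within 0.01 reads) came out as a whole number of reads, which gave reads and library totals; genes not listed hold 1.89% to 5.96% of each total. No value column was left unused.

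The test ran on log2(CPM + 1), for genes reaching 1 CPM in 2 or more of the libraries compared. This scale understates changes of low genes. It used limma 3.58.1 in R 4.3.3 (eBayes with trend, two-sided, Benjamini-Hochberg over all genes, threshold 0.05), on the 2 groups compared only. No source states that replicates came from separate embryo pools, so p-values measure only the spread between these samples. Shares were compared by exact permutation over libraries. Alternatives were pseudocounts 0.1 and 5, filters, scalings, no trend, a replicate block, all libraries in 1 fit, leaving out each replicate, and edgeR 4.0.16 and DESeq2 1.42.0 on recovered reads; the opposite assignment of the unprecipitated pairs and the tests against the total pair were added after the files were seen.

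Genes named are the Eif1ad genes with the most and fewest reads, Eif1ad, Eif1ax, Eif1, Eif5b and the 6 genes most like Eif1ad3; other Eif1ad genes were chosen after their values were seen. The gene, lists and tests were chosen with earlier results of these data known.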

Additional observations from a re-analysis of the deposited data

How the results depend on the processing

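Under the 10 alternatives that kept all 4 libraries, knockdown minus control for Eif1ad3 stayed between -1.26 and -1.12 and did not pass (adjusted p 0.375 to 0.906), and leaving out each replicate gave -1.43 to -0.98 (adjusted p 0.000748 to 1). The count of Eif1ad genes called ranged from 0 to 6 over the replicates left out, against 0 in limma with all 4 libraries, 0 in edgeR and 0 in DESeq2 (5 at an unadjusted p under 0.05 in limma). Anti-His minus IgG ranged from 1.38 to 5.14 with a replicate left out and from 2.23 to 3.62 otherwise (adjusted p 0.0726 to 0.448). Anti-His minus ni did not pass in any setting and went to -0.01 with median rescaling; were the total pair the Input samples, anti-His minus Input would be -0.80 and Input minus the WT samples 0.52, by construction. For ni minus total the value was -0.62 with median rescaling, -0.64 with quantile normalization, -0.52 with the replicate block, -0.69 with edgeR and -0.69 with DESeq2, all of which passed, -0.52 to -0.50 in the 6 other settings with both pairs whole, none of which passed (adjusted p 0.0705 to 1), and -0.88 to -0.15 with a replicate left out (adjusted p 5.4e-05 to 0.547). IgG minus ni was -3.55 and passed with all 8 libraries in 1 fit (adjusted p 0.0472 in limma), as 59.4% of genes did there. It ranged from -3.90 (pseudocount 0.1) to -2.315 (quantile normalization) in the other settings with all 4 libraries. With a replicate left out it was -5.43 to -1.67. The share of Eif1ad reads kept its direction, from -2.05 to -0.07 points in knockdown minus control and from 9.44 to 17.9 in anti-His minus IgG. Beyond the smaller number of libraries, the cause was not tested.

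With the replicate letter as a block, knockdown minus control was -1.21 (adjusted p 0.375), anti-His minus IgG 3.26 (0.346), anti-His minus ni -0.28 (0.367) and IgG minus ni -3.55 (0.243), so that only ni minus total changed its call. Same-letter deviations correlated at 0.146, -0.0138, 0.0048, -0.00821 and, for ni minus total, 0.234, and no label ties a letter to libraries handled together.

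Counts of genes called moved by over 1.5 times. Knockdown minus control went from 0 to 2 with the block, 15 with DESeq2 and 0 to 1894 with a replicate left out. Anti-His minus IgG went from 4111 to 0 with no filter, quantile normalization or edgeR, 2356 at a mean of 5 CPM and 6 to 7679 with a replicate left out. Anti-His minus ni went from 5426 to 2808 with all libraries in 1 fit and 1867 to 9567 with a replicate left out. For ni minus total, 4202 became 2631 with no filter, 2792 with no trend, 3 with all libraries in 1 fit and 1607 to 5112 with a replicate left out. For IgG minus ni, 7195 became 3645 at a mean of 5 CPM, 4339 with quantile normalization and 36 to 12010 with a replicate left out. Under quantile normalization the all-gene median went from 2.01 to -0.08 in anti-His minus IgG, with Eif1ad3 at 2.24.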
